A study of Mus musculus with 10 samples.

Results

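Non-Hox homeobox developmental regulators are a set of 57 mouse genes from 17 subfamilies (Nkx, the sine oculis relatives Six2, Six3, Six4 and Six6, Irx, Dlx, Msx, Lhx, Lmx, Gbx, Emx, En, Meis, Pbx, Evx, Cdx, Tlx, Alx and Barx). They were chosen by gene symbol, and their regions are those for which the authors list one of these symbols in 6 lists of ChIP-seq enriched regions. Of the 57 genes, 51 had a region in at least 1 list, among 10730 gene symbols listed in all. The 57 genes accounted for 389 regions over the 6 lists.

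SMAD2/3 and HEB binding was profiled by ChIP-seq. The cells were CGR8, an established line of mouse embryonic stem cells (ESCs) kept in serum and LIF with no feeder cells, and endoderm derived from it with Activin A. Endoderm+SB HEB is HEB ChIP from cells treated with 100 ng/ml Activin A from day 2 and with 10 µM SB431542 for 48 hours, taken at day 4, and Endoderm HEB is HEB ChIP from the same protocol without SB431542. When SB431542 was added in relation to Activin A is not worded clearly in the labels. ESC+SB HEB is HEB ChIP from ESCs given 10 µM SB431542 for 24 hours, and ESC HEB is HEB ChIP from untreated ESCs. Endoderm SMAD2/3 and ESC SMAD2/3 are SMAD2/3 ChIP from endoderm and ESCs, both without SB431542. Each group had 1 ChIP library from this 1 line, so no spread between replicates could be measured and no p-value is given. All differences below are between these libraries. Region lists hold no expression values, so the identity of the endoderm was not checked against marker expression here.

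Homeodomain proteins are transcription factors that set regional and cell type identity in the embryo, and in ESCs many of their genes are silent and lie in chromatin marked by Polycomb repressive complex 2 (PRC2). Tcf12 encodes HEB, an E protein of the basic helix-loop-helix class, which binds the E-box letters CANNTG, where N is any base. SMAD2 and SMAD3 enter the nucleus and bind DNA after Nodal, activin or TGF-beta ligands activate their receptors, and SB431542 inhibits the type I receptor kinases of these ligands.

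The lists held 10147 regions for Endoderm+SB HEB, 18981 for Endoderm HEB, 16769 for ESC+SB HEB, 17222 for ESC HEB, 11033 for Endoderm SMAD2/3 and 4111 for ESC SMAD2/3, with 933126 to 5051930 ChIP tags in all regions of a list. ChIP height is the deposited height of the tag pileup at the summit, whose scaling is not stated. Its smallest value was 25.0 in 5 lists and 28.0005 in ESC+SB HEB. A weak region can therefore be missing from ESC+SB HEB alone.

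Most of the homeobox genes had a HEB region in ESCs, and all but 1 were missing from the SMAD2/3 list of ESCs. A region was listed for 24 of the 57 genes in Endoderm+SB HEB (42.1%, 95% CI 29.1 to 55.9), against 23% of 21900 protein-coding genes. The count was 36 in Endoderm HEB (63.2%, CI 49.3 to 75.6), against 24.9% of protein-coding genes. In ESC+SB HEB it was 48 (84.2%, CI 72.1 to 92.5), against 29.9%, and in ESC HEB it was 47 (82.5%, CI 70.1 to 91.3), against 24.1%. SMAD2/3 regions were listed for 16 genes in endoderm (28.1%, CI 16.97 to 41.5), against 23.1%, a share near that of all genes. In ESC SMAD2/3, Cdx1, a regulator of axial patterning, was the only one of the 57 genes with a region (1.75%, CI 0.0444 to 9.39), against 7.32% of protein-coding genes. That interval includes the share of all genes, so the low count in this short list does not set the 57 genes apart. These exact binomial intervals cover counting error only.

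**Figure D1:**
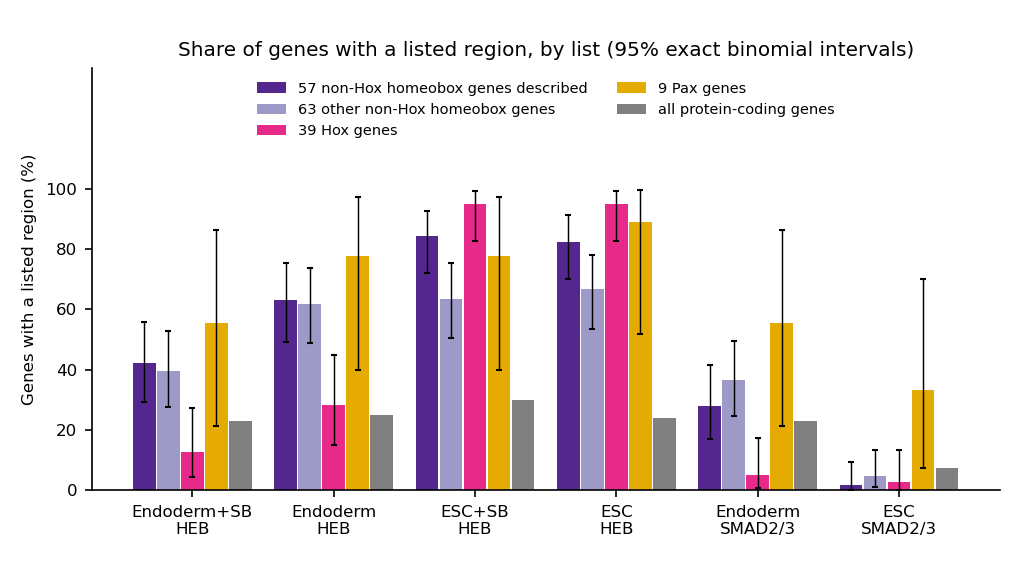
Share of genes with a listed region (y axis, percent) in each of the 6 lists (x axis) for the 57 non-Hox homeobox genes, 63 other non-Hox homeobox genes, 39 Hox genes, 9 Pax genes and all protein-coding genes. Error bars are 95% exact binomial intervals. The bars of the 57 genes stand at 84.2% in ESC+SB HEB and 82.5% in ESC HEB, and at 1.75% in ESC SMAD2/3.

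Other homeobox families are shown by name for scale and were not tested against the 57 genes. Of 63 other non-Hox homeobox genes, 25 were listed in Endoderm+SB HEB, 39 in Endoderm HEB, 40 in ESC+SB HEB, 42 in ESC HEB, 23 in Endoderm SMAD2/3 and 3 in ESC SMAD2/3. Of 39 Hox genes, which pattern the body axis from 4 clusters of neighbouring genes, 5 were listed in Endoderm+SB HEB, 11 in Endoderm HEB and 37 in each ESC HEB list. In Endoderm HEB the 57 genes thus held 36 of 57 (63.2%) and the other non-Hox homeobox genes 39 of 63 (61.9%). The Hox genes held 11 of 39 (28.2%) there. A HEB region in endoderm was thus not particular to the 57 genes. Of 9 Pax genes, 5 were listed in Endoderm+SB HEB, 7 in Endoderm HEB, 7 in ESC+SB HEB and 8 in ESC HEB.

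Sequence is shown only for genes with exactly 1 promoter window in the RefSeq table, and genes of 1 chromosome were left out. Among the rest these are the 3 with the highest tag enrichment in an ESC HEB region over the 5′ end. Shown beside them are 2 genes that no list names. Tag enrichment is the authors' ratio of ChIP to background (input) tags in a region. It was more than 1% below the quotient of the deposited tags in 36 of the 389 homeobox regions, among them those of highest enrichment at Meis2 and Emx2 given here, and above it in none. The 3 genes are Lhx4, a LIM homeobox gene of the pituitary and motor neurons, Nkx2-1, a regulator of lung, thyroid and ventral forebrain, and Nkx2-2, a regulator of ventral neural tube and pancreatic islets. The 2 genes without a region are Nkx2-5, a regulator of the heart, and Nkx6-2, which acts in the ventral neural tube. Each line gives the 250 bases before the transcription start, 5′ to 3′ on the minus strand, from RefSeq on GRCm38.p6, at chr1:155742028-155742277 (Lhx4), chr12:56536909-56537158 (Nkx2-1), chr2:147186403-147186652 (Nkx2-2), chr17:26841566-26841815 (Nkx2-5) and chr7:139582798-139583047 (Nkx6-2). Capitals mark CANNTG.

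Lhx4: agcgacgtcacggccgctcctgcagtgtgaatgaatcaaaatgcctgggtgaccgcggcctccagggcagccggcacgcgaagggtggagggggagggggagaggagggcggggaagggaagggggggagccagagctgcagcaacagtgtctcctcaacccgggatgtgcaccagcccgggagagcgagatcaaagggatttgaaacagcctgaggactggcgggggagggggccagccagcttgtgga

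Nkx2-1: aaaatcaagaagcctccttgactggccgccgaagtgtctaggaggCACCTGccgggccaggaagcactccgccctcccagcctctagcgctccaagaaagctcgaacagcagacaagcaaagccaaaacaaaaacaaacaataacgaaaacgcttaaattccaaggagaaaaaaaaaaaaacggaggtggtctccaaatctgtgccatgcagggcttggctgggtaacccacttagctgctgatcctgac

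Nkx2-2: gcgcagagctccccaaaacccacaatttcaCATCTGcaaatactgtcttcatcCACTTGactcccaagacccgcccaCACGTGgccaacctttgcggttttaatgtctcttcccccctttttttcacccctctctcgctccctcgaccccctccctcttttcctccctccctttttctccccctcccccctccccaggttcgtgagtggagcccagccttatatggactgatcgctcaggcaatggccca

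Nkx2-5: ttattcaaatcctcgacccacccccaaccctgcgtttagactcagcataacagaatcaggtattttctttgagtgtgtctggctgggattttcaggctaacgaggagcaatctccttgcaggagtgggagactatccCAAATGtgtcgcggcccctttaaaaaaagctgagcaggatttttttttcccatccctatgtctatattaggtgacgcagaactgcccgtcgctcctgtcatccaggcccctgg

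Nkx6-2: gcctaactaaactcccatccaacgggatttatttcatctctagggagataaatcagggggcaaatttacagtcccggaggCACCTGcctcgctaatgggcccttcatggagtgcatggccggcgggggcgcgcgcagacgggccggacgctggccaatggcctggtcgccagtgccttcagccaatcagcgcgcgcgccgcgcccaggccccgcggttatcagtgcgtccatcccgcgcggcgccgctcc

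The Lhx4 window held no CANNTG and the Nkx2-2 window held 3. Nkx2-1, Nkx2-5 and Nkx6-2 had 1 each, and that of Nkx2-1 lay 205 bases before the start. RefSeq windows were found for 41 of the 57 genes (46 windows). CANNTG, searched on both strands, occurred in 24 of these 46 windows (52.2%), against 66.2% of all 32851 windows of the table. Among the 27 windows of genes with an ESC HEB region over the 5′ end it occurred in 14 (51.9%). In the 19 other homeobox windows it occurred in 10 (52.6%), a similar share. The E-box CAGCTG, which is its own reverse complement, occurred in 6.52% of the homeobox windows against 13.0% of all. The E-box CAGGTG, counted with its reverse complement, occurred in 13.0% against 17.2%. Both are also counted within CANNTG. The short SMAD element CAGAC, counted with its reverse complement, occurred in 43.5% against 42.2%. The palindrome GTCTAGAC occurred in 0% against 0.167%. The homeobox windows were richer in G and C, with a median GC content of 61.6% against 52.4% and a median of 14.5 CG dinucleotides against 6.0. A motif match is a description of letters in this window, and the windows were joined to the mm9 regions by gene name alone.

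**Figure D2:**
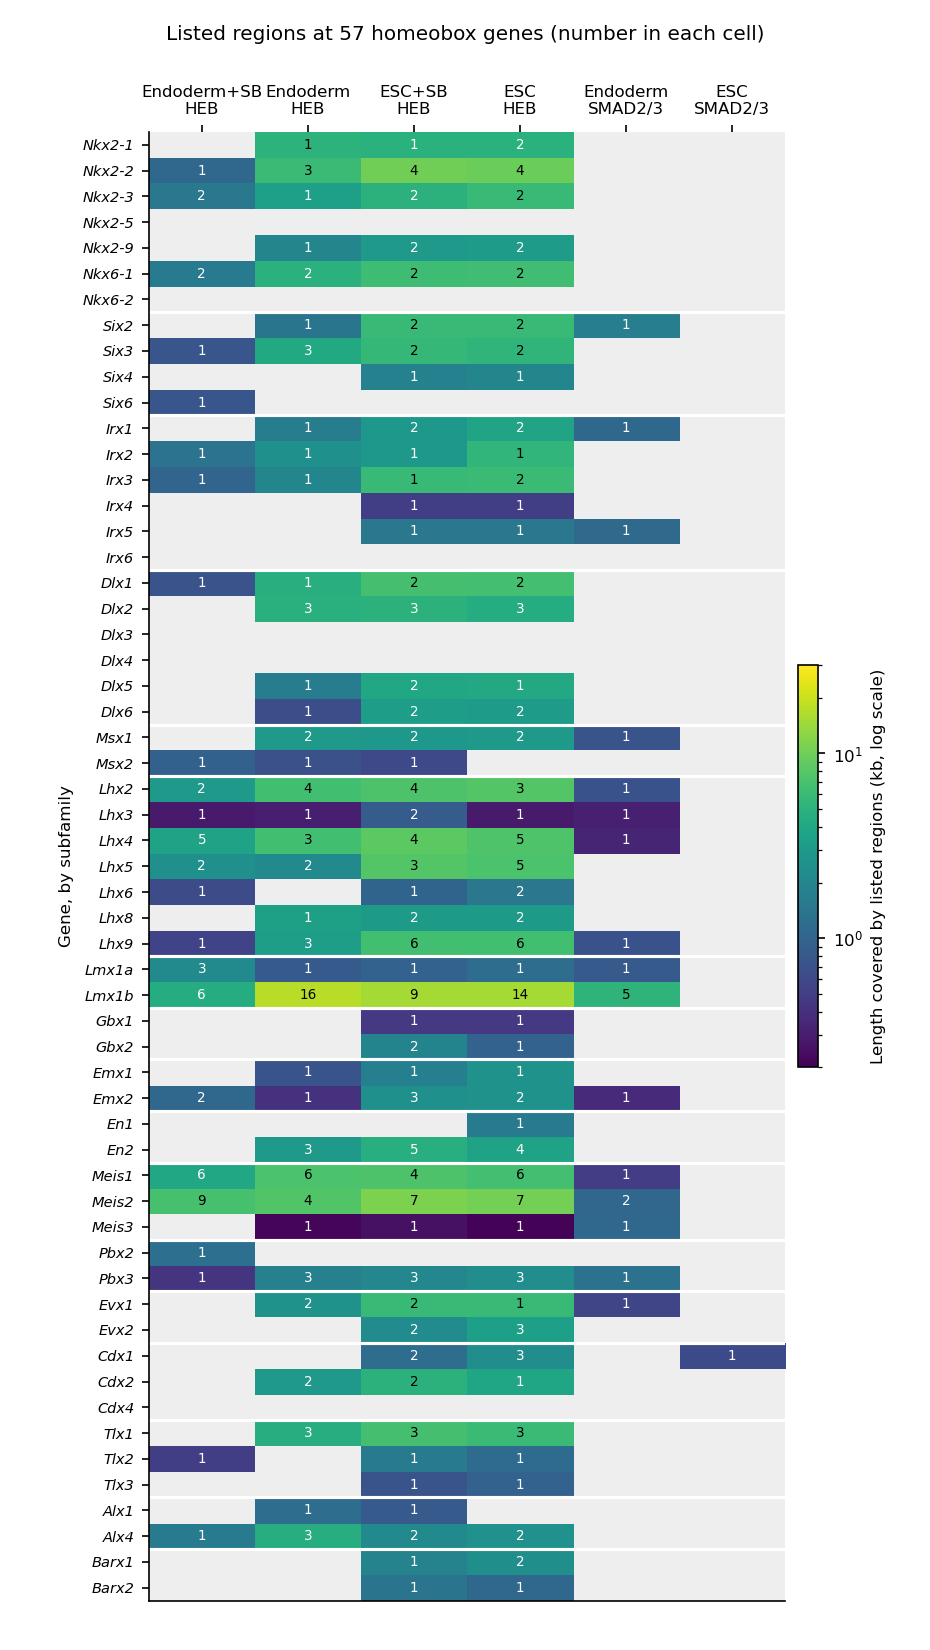
Regions listed for each of the 57 genes (rows, by subfamily, separated by white lines) in each list (columns). Colour is the length covered by the gene's regions in kb on a log scale, the number in a cell is the count of regions, and grey is no region. The columns of ESC+SB HEB and ESC HEB are filled for 48 and 47 genes, and ESC SMAD2/3 for Cdx1 alone.

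The Nkx and Irx genes, with Six2, Six3, Six4 and Six6, which pattern the neural tube, eye, kidney and heart among other organs, were listed for HEB in both Endoderm HEB and ESC HEB in 10 of 17 cases, and the regions of each of these subfamilies covered a longer stretch in ESC HEB. All of Nkx2-1, Nkx2-2, Nkx2-3, Nkx2-9 and Nkx6-1 had HEB regions in Endoderm HEB, ESC+SB HEB and ESC HEB. The regions of the Nkx genes together covered 4176 bp in Endoderm+SB HEB, 21433 bp in Endoderm HEB, 29446 bp in ESC+SB HEB and 30113 bp in ESC HEB, and none was listed for SMAD2/3. The Nkx region of greatest ChIP height was at Nkx2-2 in both states, with 126 in Endoderm HEB and 162 in ESC HEB. For Nkx6-1, a regulator of pancreatic beta cells and motor neurons, the highest tag enrichment was 9.41 in Endoderm+SB HEB, 19.98 in Endoderm HEB, 25.5 in ESC+SB HEB and 21.9 in ESC HEB. Nkx6-1 thus had its lowest value in differentiating cells with SB431542.

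Six2, which maintains nephron progenitors, had 1 region of 1398 bp in Endoderm HEB, against 2 regions with a widest of 4981 bp in ESC HEB. Six3, a forebrain and eye gene, had the greatest ChIP height of its subfamily in ESC HEB at 108, and Six2 that in Endoderm HEB at 58.6. Six4 was listed in both ESC HEB lists alone and Six6, a retina and pituitary gene, in Endoderm+SB HEB alone (ChIP height 30.9, 768 bp, inside the gene 5204 bp from its 5′ end). Among the Irx genes, Irx3 had a region over its 5′ end of 1032 bp in Endoderm+SB HEB, 1993 bp in Endoderm HEB, 5918 bp in ESC+SB HEB and 5564 bp in ESC HEB. Irx2 held the Irx region of greatest height in ESC HEB at 145, and Irx3 that in Endoderm HEB at 66.1. The Irx2 region was also listed for the neighbouring transcript D430050G20, so its tags cannot be given to 1 of these genes.

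Dlx and Msx genes act in forebrain interneurons, branchial arches, limbs and teeth. Dlx1 had a region over its 5′ end in 3 HEB lists, 4644 bp wide in Endoderm HEB (chr2:71366535-71371179, mm9), 5269 bp in ESC+SB HEB and 5105 bp in ESC HEB. In Endoderm+SB HEB the only Dlx1 region was 714 bp wide. The wide Dlx1 regions were also listed for the antisense gene Dlx1as. Dlx2, Dlx5 and Dlx6 were listed in the same 3 lists and not in Endoderm+SB HEB. The Dlx region of greatest height was that of Dlx1 in Endoderm HEB at 44.6 and that of Dlx5 in ESC HEB at 77.9. Dlx3 and Dlx4 were in no list. Msx1, a craniofacial and tooth gene, had its highest HEB tag enrichment at 13.0 in Endoderm HEB, 22.7 in ESC+SB HEB and 12.5 in ESC HEB, and its SMAD2/3 region in endoderm had 16.8. Its greatest HEB height was 52.9 in Endoderm HEB and 69.6 in ESC HEB.

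The LIM homeobox genes, Lhx and Lmx, specify motor neurons, interneurons, pituitary, gonad, limb and dopaminergic neurons, and all but Lhx6, Lhx8 and Lhx5 among them carried both HEB and SMAD2/3 regions in endoderm. The tallest Lhx region was at Lhx5, a forebrain gene, with 69.5 in Endoderm HEB and 134 in ESC HEB, where its highest tag enrichment was 22.3. Lhx4 had a highest tag enrichment of 10.9 in Endoderm+SB HEB, 14.8 in Endoderm HEB, 17.6 in ESC+SB HEB and 26.2 in ESC HEB. Lhx9, a gonad and limb gene, had 1 region in Endoderm+SB HEB, 3 in Endoderm HEB and 6 in each ESC HEB list. Lmx1a, which acts in dopaminergic neurons with Lmx1b, had 3 regions in Endoderm+SB HEB with a highest tag enrichment of 20.4, and 1 in each other HEB list. None of its Endoderm+SB HEB regions overlapped an Endoderm HEB region.

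Lmx1b, needed for dorsal limb, kidney podocytes and midbrain dopaminergic neurons, had the most regions of the 57 genes over the 6 lists together, with 6 in Endoderm+SB HEB, 16 in Endoderm HEB, 9 in ESC+SB HEB, 14 in ESC HEB, 5 in Endoderm SMAD2/3 and 0 in ESC SMAD2/3. Its strongest region lay inside the gene, 57280 bp from the 5′ end, at chr2:33435766-33438751 (mm9). In Endoderm HEB this region held 4985 ChIP and 90 input tags, a ChIP height of 949 and a tag enrichment of 55.4, which placed it at rank 17 of the 18981 regions. An Endoderm SMAD2/3 region lay over it at chr2:33435996-33439179, with 1518 ChIP and 97 input tags, a height of 199.6 and a tag enrichment of 15.6, and the summits were 2 bp apart. At the same place Endoderm+SB HEB had 2 narrower regions with heights of 60.0 and 43.2, ESC+SB HEB had 1 with a height of 30.3, and ESC HEB had 2 with heights of 26.6 and 26.1. Height there was therefore far greater in the Endoderm HEB library than in the other 3 HEB libraries.

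Within the body of Lmx1b, the Endoderm HEB region of highest tag enrichment was at chr2:33460292-33461080 with 61.0 (943 ChIP and 15 input tags), against 15.8 for the ESC HEB region over it. At chr2:33472467-33473020 the order was the other way, with 30.6 in Endoderm HEB and 55.7 in ESC HEB (668 ChIP and 12 input tags). In ESC+SB HEB the region at that place had 8.86. Ratios on few input tags are imprecise, and the regions of 1 gene are not replicates of a state.

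**Figure D3:**
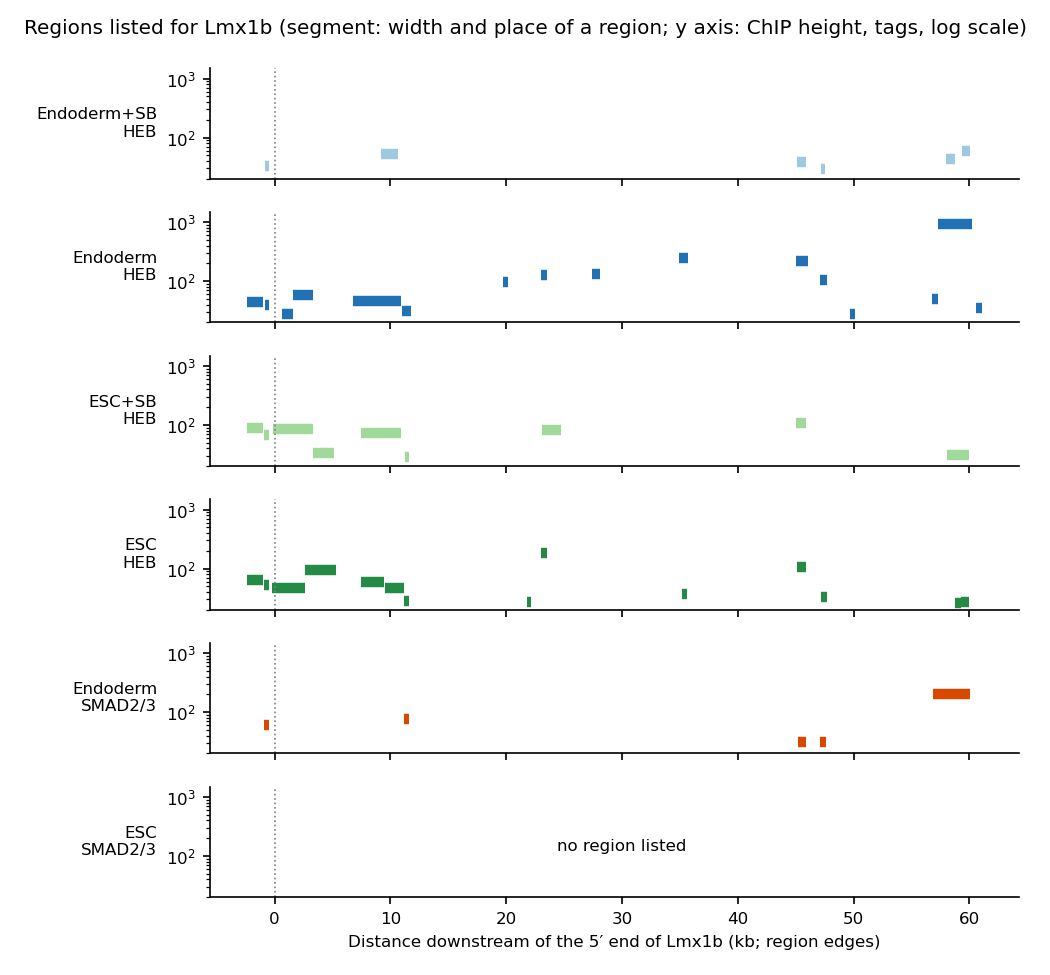
Regions listed for Lmx1b in each of the 6 lists (panels), by distance downstream of its 5′ end in kb (x axis) and ChIP height in tags on a log scale (y axis). Each segment is a region at its width, with the narrowest drawn at a minimum length so that they stay visible. The tallest segments are those of Endoderm HEB at 949 and Endoderm SMAD2/3 at 199.6.

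Meis and Pbx genes encode TALE homeodomain partners of Hox proteins. Meis2 had the highest tag enrichment of any of the 57 genes in ESC HEB, 81.7 at chr2:115698481-115699004 (853 ChIP and 10 input tags), inside the gene and 191353 bp from its 5′ end. The ESC+SB HEB region there had 18.3, and no Endoderm HEB region of Meis2 had more than 24.6. The tallest Meis region was at Meis2, with 147 in Endoderm HEB and 246 in ESC HEB. Meis2 had 9 regions in Endoderm+SB HEB, 4 in Endoderm HEB and 7 in each ESC HEB list, and Meis1 had 6 in all but ESC+SB HEB, where it had 4. In ESC+SB HEB the highest tag enrichment of the 57 genes was also at Meis2 (40.8), followed by Nkx6-1, Msx1, Nkx2-1 (21.9) and Irx2 (21.4). Meis1 had a highest tag enrichment of 31.4 in Endoderm+SB HEB, 27.6 in Endoderm HEB, 14.6 in ESC+SB HEB and 20.04 in ESC HEB. Of its 5 Endoderm HEB regions matched in ESC HEB, 1 had the higher tag enrichment in Endoderm HEB (27.6, against 15.3 in ESC HEB) and the other 4 the lower. The greatest height of Meis1 was 86.4 in Endoderm+SB HEB, 112 in Endoderm HEB, 133 in ESC+SB HEB and 86.9 in ESC HEB. Pbx3 had 25.4 in Endoderm HEB (139 ChIP and 5 input tags), against 5.39 in ESC HEB. Its greatest height was 52.8 in Endoderm HEB and 32.4 in ESC HEB. Pbx2 was listed in Endoderm+SB HEB alone (height 26.4), in a region also listed for Gpsm3.

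Evx, Cdx and Gbx genes act in the posterior body axis, spinal cord and hindbrain, and of the 7 genes Evx2, Cdx1, Gbx1 and Gbx2 were listed for HEB in ESCs but not in endoderm. Evx1, a gene of the primitive streak and spinal interneurons, had the widest ESC HEB region of the 57 genes at 5845 bp (chr6:52262445-52268290), against a widest region of 1942 bp in Endoderm HEB. Its greatest height was 49.7 in Endoderm HEB and 75.2 in ESC HEB. Evx2 had no region in endoderm, and in ESC HEB 3 regions with a highest tag enrichment of 19.4. Cdx2, a regulator of trophectoderm and intestine, had its greatest height at 60.8 in Endoderm HEB and 88.04 in ESC HEB, and its widest region at 1842 bp in Endoderm HEB and 3850 bp in ESC HEB. Cdx1 was listed for HEB in ESCs alone and Cdx4 was in no list. Gbx1 and Gbx2, a hindbrain gene, had low heights, for Gbx1 29.4 in ESC+SB HEB and 26.9 in ESC HEB, and for Gbx2 35.2 in ESC+SB HEB and 29.8 in ESC HEB.

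Among the cortex and midbrain genes, Emx2 held the highest tag enrichment of the 57 genes in Endoderm+SB HEB, 42.0 at chr19:59540387-59540925 (398 ChIP and 9 input tags), 7207 bp from its 5′ end. Its greatest height was 80.9 in Endoderm+SB HEB and 33.1 in Endoderm HEB, where its only region, of 409 bp, lay within 1 kb of the 5′ end. These heights are therefore not a comparison at a shared place. The tallest Emx region was at Emx2 in Endoderm HEB (33.1) and at Emx1 in ESC HEB (38.9). The midbrain gene En2 had a greatest height of 46.1 in Endoderm HEB and 49.5 in ESC HEB, while En1 was listed in ESC HEB alone, with a height of 27.6 that lies below the smallest height of ESC+SB HEB. Tlx1, which is needed for the spleen, had greatest heights of 31.9 in Endoderm HEB and 60.9 in ESC HEB. Alx4, a skull and limb gene, had 73.0 in Endoderm HEB and 55.1 in ESC HEB, and Alx1 was listed in Endoderm HEB and ESC+SB HEB. Barx1, a stomach gene, and Barx2 had regions over their 5′ ends in both ESC HEB lists and none in endoderm, with a greatest Barx height of 33.7 at Barx2 in ESC HEB.

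HEB regions of the homeobox genes were wide for their lists. The median width was 768 bp in Endoderm+SB HEB, against 551 bp for all regions of that list, 1210 bp against 489 bp in Endoderm HEB, 1386 bp against 573 bp in ESC+SB HEB and 1244 bp against 513 bp in ESC HEB. For SMAD2/3 in endoderm it was 703 bp against 545 bp, but the order turned round in the upper 50% of the list by height (489 bp against 604 bp) and at equal list length (563.5 bp against 630.0 bp). The Cdx1 region of ESC SMAD2/3 was 613 bp wide, against a median of 514 bp. Among promoter-proximal regions alone, those within 1 kb of a 5′ end, the medians were 764 bp against 579 bp in Endoderm+SB HEB, 1398 bp against 597 bp in Endoderm HEB, 1543.5 bp against 696 bp in ESC+SB HEB and 1702.5 bp against 628 bp in ESC HEB. In Endoderm SMAD2/3 they were close, at 722.5 bp against 706 bp.

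Wide regions, over 2 kb, made up 0 of 53 homeobox regions in Endoderm+SB HEB, against 0.237% of all regions, and with 0 observed the upper limit of the interval was 6.72%. They made up 17 of 85 in Endoderm HEB (20%, CI 12.1 to 30.1), against 1.05%, and 30 of 111 in ESC+SB HEB (27.0%, CI 19.0 to 36.3), against 2.59%. In ESC HEB they made up 33 of 118 (27.97%, CI 20.1 to 37.0), against 2.06%. In Endoderm SMAD2/3 the Lmx1b region was the only wide one of 21, against 0.716%, and in ESC SMAD2/3 there was none, against 0.17%. The wide regions belonged to 12 genes in Endoderm HEB, 22 in ESC+SB HEB and 24 in ESC HEB. In Endoderm HEB they were 8.5% of all 200 wide regions, where homeobox regions were 0.448% of the list. In ESC HEB they were 9.32% of all 354 wide regions, where homeobox regions were 0.685% of the list. Wide regions were as common at related genes. In Endoderm HEB they made up 17 of 87 regions of the 63 other non-Hox homeobox genes (19.5%). For the 39 Hox genes it was 4 of 19 (21.1%) and for the 9 Pax genes 10 of 31 (32.3%). In ESC HEB the shares were 24 of 79 for the other homeobox genes (30.4%), 31 of 98 for Hox (31.6%) and 9 of 39 for Pax (23.1%). Wide regions were thus not particular to the 57 genes. Nkx2-1 (5084 bp), Dlx1 (4644 bp) and Meis2 (4215 bp) had the widest in Endoderm HEB, and Evx1 (5845 bp), Irx3 (5564 bp) and Irx2 (5445 bp) in ESC HEB. In ESC+SB HEB they were Irx3 (5918 bp), Dlx1 (5269 bp) and Nkx2-2 (5216 bp), and in Endoderm+SB HEB Lhx5 (1676 bp), Alx4 (1540 bp) and Lhx2 (1522 bp).

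**Figure D4:**
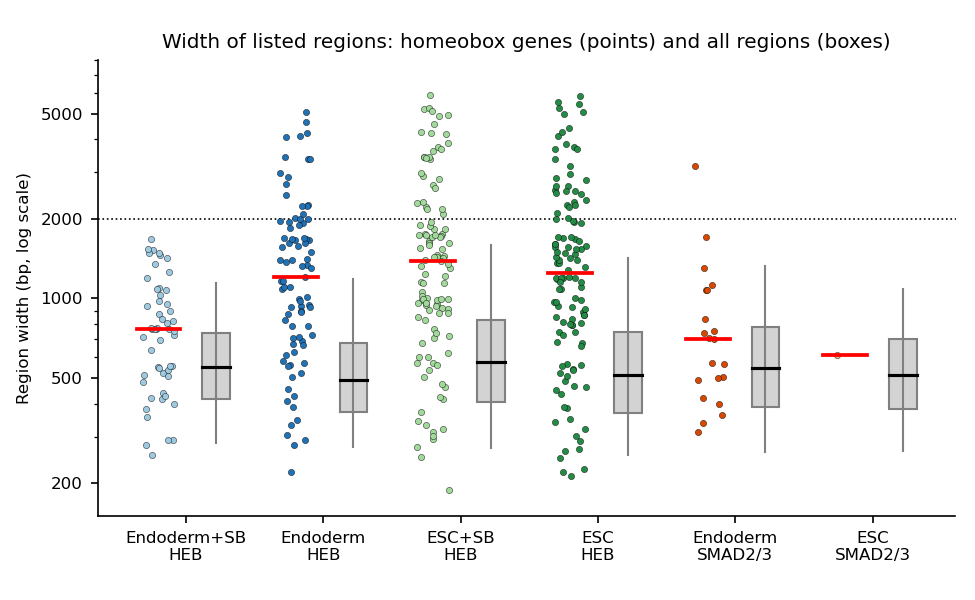
Width of each region listed for the 57 genes (coloured points, red line at their median) beside all regions of the same list (grey box, 25th to 75th percentile, black line at the median, whiskers from the 5th to the 95th percentile), in bp on a log axis, for each list (x axis). The dotted line marks 2000 bp. Points above it number 17 in Endoderm HEB, 30 in ESC+SB HEB and 33 in ESC HEB, and 0 in Endoderm+SB HEB.

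Over all regions, promoter-proximal or not, height and enrichment set the homeobox regions apart less than width. Median ChIP height was 33.3 against 34.5 for all regions in Endoderm+SB HEB, 40.7 against 39.2 in Endoderm HEB, 46.5 against 40.0 in ESC+SB HEB and 41.4 against 37.6 in ESC HEB. Median tag enrichment was 10.1 against 9.33 in Endoderm+SB HEB, 11.9 against 12.7 in Endoderm HEB, 11.1 against 6.36 in ESC+SB HEB and 11.3 against 8.44 in ESC HEB. Among promoter-proximal regions it was 8.89 against 6.54 in Endoderm+SB HEB and 11.2 against 7.54 in Endoderm HEB. There it was 12.4 against 4.69 in ESC+SB HEB and 12.2 against 6.10 in ESC HEB. In the lists with SB431542, promoter-proximal enrichment thus differed by a larger factor than width. For SMAD2/3 in endoderm the height was 31.5 against 34.4 and the enrichment 8.30 against 9.47, so neither median of these 21 regions exceeded that of the list.

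Homeobox regions were promoter-proximal in 15 of 53 cases in Endoderm+SB HEB (28.3%, CI 16.8 to 42.3), against 34.5% of all regions of that list. The share was 43.5% in Endoderm HEB (CI 32.8 to 54.7) against 15.1%, 50.5% in ESC+SB HEB (CI 40.8 to 60.1) against 28.4%, and 45.8% in ESC HEB (CI 36.6 to 55.2) against 17.7%. It was 47.6% in Endoderm SMAD2/3 (CI 25.7 to 70.2) against 30.3%. Since all homeobox regions have a gene listed, the nearer figure is the share among regions with any gene listed, which was 55.0% in Endoderm+SB HEB, 28.6% in Endoderm HEB, 46.2% in ESC+SB HEB, 32.1% in ESC HEB and 49.4% in Endoderm SMAD2/3. Read against it, the homeobox share was lower in Endoderm+SB HEB and higher in Endoderm HEB and ESC HEB. The intervals treat regions as independent, but a gene can have many, as Lmx1b with 16 in Endoderm HEB, so they are no test of this. In lists of equal length by height the Endoderm HEB share was 26.7% (4 of 15). The share among all regions with a gene was not counted there. Regions lay over the 5′ end itself 6 times in Endoderm+SB HEB, 20 times in Endoderm HEB, 37 times in ESC+SB HEB and 34 times in ESC HEB.

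The comparison of HEB in endoderm with HEB in ESCs asked how occupancy at these genes differed between the states. Of the 57 genes, 34 were listed in both (15.1% of protein-coding genes were), 2 in Endoderm HEB alone (against 9.74%) and 13 in ESC HEB alone (against 9%). The 2 were Msx2, a skull gene, with a height of 43.4 in Endoderm HEB, and Alx1 with 31.0. The 13 were Six4, Irx4, Irx5, Lhx6, Gbx1, Gbx2, En1, Evx2, Cdx1, Tlx2, Tlx3, Barx1 and Barx2. Cdx1 had the greatest height of these in ESC HEB at 80.4, followed by Evx2 (50.5), Irx4 (48.1) and Tlx3 (43.6), and the other 9 lay between 26.9 and 33.7. Most of the 13 were thus near the smallest listed height. Of the homeobox genes in ESC HEB, 72.3% were also in Endoderm HEB, against 62.7% of all protein-coding genes listed in ESC HEB. Once listed in ESC HEB, they were thus missing from Endoderm HEB less often than other genes. From the Endoderm HEB side, 94.4% were also in ESC HEB, against 60.8%.

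Regions of the 57 genes covered 126140 bp in Endoderm HEB and 193321 bp in ESC HEB, a ratio of 0.652, while the whole lists covered similar lengths (ratio 1.01). The mean ChIP tags per kb of these regions were 349 in Endoderm HEB and 389 in ESC HEB. Of the 49 genes with a region in either list, 11 were covered over a longer stretch in Endoderm HEB and 38 in ESC HEB. Evx1 had 2554 bp in Endoderm HEB and 5845 bp in ESC HEB. Lhx5 had 2177 bp in Endoderm HEB and 7249 bp in ESC HEB, and Six2 had 1398 bp in Endoderm HEB and 5866 bp in ESC HEB. Lmx1b ran the other way, with 17534 bp in Endoderm HEB and 15230 bp in ESC HEB, as did Alx4 with 4517 bp in Endoderm HEB and 2533 bp in ESC HEB. With each list held to its 4111 regions of greatest height, 9 of the genes were listed in Endoderm HEB (of 1442 symbols in all) and 23 in ESC HEB (of 1517), and the covered lengths had a ratio of 0.276. Fewer cells with HEB at a gene and less HEB at it in each cell cannot be told apart in these libraries.

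Of the 85 homeobox regions of Endoderm HEB, 70 (82.4%, CI 72.6 to 89.8) overlapped an ESC HEB region by at least 1 bp, against 29.1% of all Endoderm HEB regions and 54.0% of the promoter-proximal ones. Of the 118 of ESC HEB, 74 (62.7%, CI 53.3 to 71.4) overlapped Endoderm HEB, against 32.1%. In lists of equal length by height, 60.0% of 15 homeobox regions of Endoderm HEB overlapped ESC HEB, against 21.7% of all, and 26.3% of 38 of ESC HEB overlapped Endoderm HEB, against 21.8%. In the full lists, 30 of the 33 wide ESC HEB regions (90.9%) overlapped Endoderm HEB, against 69.5% of all wide ones, and 44 of the 85 narrower ones (51.8%) did, against 31.3%. At equal length this order turned round within each width class. There 7 of 22 wide ESC HEB regions (31.8%) overlapped, against 36.5%, and 3 of 16 narrower ones (18.8%), against 21.1%. From the Endoderm HEB side it did not, with 4 of 5 wide regions (80.0%), against 70.0%, and 5 of 10 narrower ones (50.0%), against 20.7%. At the 70 matched regions the median log2 ratio of tag enrichment, Endoderm HEB over ESC HEB, was -0.18, against 0.27 over all matched regions, and 56 of the 70 lay below 0.27. Lmx1b had the highest ratio at 2.86 and Lhx2, an eye and cortex gene, the lowest at -1.12, where enrichment was 8.79 in Endoderm HEB and 19.1 in ESC HEB.

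ESCs with SB431542, set against untreated ESCs, address HEB occupancy when activin and Nodal receptors are inhibited, and most homeobox regions were listed in both. Both lists named 46 of the genes (21.1% of protein-coding genes were in both), ESC+SB HEB alone named Msx2 (height 29.97) and Alx1 (height 33.9), against 8.81%, and ESC HEB alone named En1 (height 27.6), against 3.05%. Of 111 ESC+SB HEB regions, 102 (91.9%, CI 85.2 to 96.2) overlapped ESC HEB, against 76.2%, and of 118 ESC HEB regions 106 (89.8%, CI 82.9 to 94.6) overlapped ESC+SB HEB, against 74.8%. In lists of equal length by height, 79.5% of 44 homeobox regions of ESC+SB HEB overlapped ESC HEB, close to the 77.0% of all. From the ESC HEB side it was 94.7% of 38, against 77.2%. In the full lists, all 30 wide regions of ESC+SB HEB overlapped ESC HEB, against 96.3% of all wide regions, and all 33 of ESC HEB overlapped ESC+SB HEB, against 98.6%. Of the narrower regions of ESC+SB HEB, 72 of 81 (88.9%) overlapped ESC HEB, against 75.6%. At equal length this order turned round for them, with 10 of 17 (58.8%), against 76.7%. It did not from the ESC HEB side, where 14 of 16 narrower regions (87.5%) overlapped ESC+SB HEB, against 76.1%. The regions covered 192585 bp in ESC+SB HEB and 193321 bp in ESC HEB, with 23 genes longer in ESC+SB HEB and 26 in ESC HEB. The median log2 ratio of tag enrichment at the 102 matched regions was -0.05, against -0.24 over all matched regions, and 76 lay above -0.24. The lowest ratios were at Lmx1b (-2.65) and Meis2 (-2.16), at the regions of high ESC HEB enrichment given above, and the highest was at Msx1 (0.86).

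In differentiating cells, fewer and narrower homeobox regions were listed with SB431542 than without it. Both lists named 20 of the genes (14.2% of protein-coding genes were in both), Endoderm+SB HEB alone named Six6, Lhx6, Pbx2 and Tlx2 with heights of 26.4 to 30.9 (against 8.83%), and Endoderm HEB alone named 16 (against 10.6%). The 10 of greatest height among the 16 were Nkx2-1 (71.8), Nkx2-9 (67.3), Cdx2 (60.8), Six2 (58.6), Msx1 (52.9), Lhx8 (49.9), Evx1 (49.7), En2 (46.1), Dlx2 (37.4) and Dlx6 (34.3). The others were Irx1, Dlx5, Emx1, Meis3, Tlx1 and Alx1. Of the homeobox genes in Endoderm HEB, 55.6% were also in Endoderm+SB HEB, close to the 57.2% of all protein-coding genes listed there. By this share the homeobox genes of Endoderm HEB were not missing more often with SB431542 than other genes. From the Endoderm+SB HEB side, 83.3% were also in Endoderm HEB, against 61.7%. The regions covered 42651 bp in Endoderm+SB HEB and 126140 bp in Endoderm HEB, a ratio of 0.338, against 0.560 for the whole lists. Of the 40 genes with a region in either list, 8 were longer in Endoderm+SB HEB and 32 in Endoderm HEB. The list of Endoderm+SB HEB was also the shorter, and the lower number of genes turned round in lists of equal length. With both lists held to their 4111 regions of greatest height, 13 of the genes were named in Endoderm+SB HEB and 9 in Endoderm HEB, and over all genes 1820 symbols were named in Endoderm+SB HEB and 1442 in Endoderm HEB. With the 4111 regions of highest tag enrichment, 15 were named in Endoderm+SB HEB (of 1414 symbols) and 6 in Endoderm HEB (of 1342 symbols), and the covered lengths had a ratio of 1.17.

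**Figure D5:**
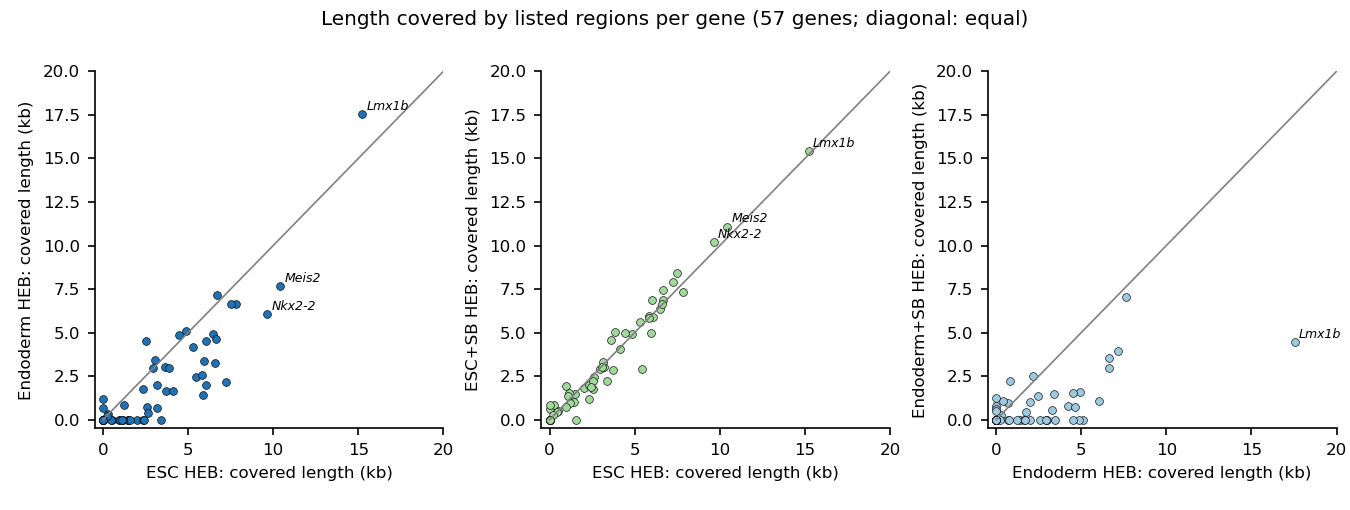
Length covered by listed regions for each of the 57 genes, in kb, with 1 point a gene: Endoderm HEB (y axis) and ESC HEB (x axis) on the left, ESC+SB HEB and ESC HEB in the middle, and Endoderm+SB HEB and Endoderm HEB on the right. The diagonal marks equal lengths. On the left 11 genes lie above it and 38 below, in the middle 23 above and 26 below, and on the right 8 above and 32 below.

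Of 53 Endoderm+SB HEB regions, 37 (69.8%, CI 55.7 to 81.7) overlapped Endoderm HEB, against 47.5%, and the same number overlapped ESC HEB, against 29.5%. In lists of equal length by height, 7 of 23 (30.4%) overlapped Endoderm HEB, against 23.9% of all, and 11 of 23 (47.8%) overlapped ESC HEB, against 13.0%. Of 85 Endoderm HEB regions, 31 (36.5%, CI 26.3 to 47.6) overlapped Endoderm+SB HEB, against 25.3%. At the 37 matched regions the median log2 ratio of tag enrichment, with SB431542 over without, was -0.75, against -0.15 over all matched regions, and 26 of 37 lay below -0.15. Without Lmx1b the difference of these medians was -0.36 in place of -0.60. Width differed further, with a median log2 ratio of -1.16 against -0.08, and 32 of 37 regions were narrower with SB431542 (86.5%, against 58.3% of all). Nkx6-1 had a region of 769 bp and height 29.0 in Endoderm+SB HEB, over one of 2024 bp and height 82.7 in Endoderm HEB. Msx2 had the opposite order of enrichment at chr13:53565623-53566578, with a tag enrichment of 28.05 (561 ChIP and 20 input tags) in Endoderm+SB HEB and 15.5 in Endoderm HEB. Meis2 did so as well at 54992 bp from its 5′ end, with 22.04 in Endoderm+SB HEB and 9.05 in Endoderm HEB.

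The SMAD2/3 comparison of endoderm with ESCs found no homeobox gene in both lists (5.27% of protein-coding genes were), 16 in endoderm alone (against 17.8%) and Cdx1 in ESCs alone (against 2.05%). None of the 21 homeobox regions of Endoderm SMAD2/3 overlapped an ESC SMAD2/3 region (upper limit of the interval 16.1%), against 14.2% of all. By height, Lmx1b (199.6) was followed by Six2 (52.8), Lhx4 (49.3), Msx1 (46.3), Lhx3 (42.6), Lhx9 (40.7), Meis2 (37.3), Pbx3 (34.4), Lhx2 (31.5) and Emx2 (30.6). Lmx1a (29.0), Meis1 (27.3), Meis3 (27.1), Irx5 (26.3), Evx1 (26.1) and Irx1 (25.0) lay close to the smallest listed height of 25.0. By tag enrichment Lmx1b (24.2), Msx1 (16.8), Meis2 (14.2), Six2 (13.6) and Lhx9 (10.9) were highest. The Lmx1b value came from a region 11214 bp from its 5′ end with 218 ChIP and 9 input tags. Lmx1b had 5 SMAD2/3 regions in endoderm and Meis2 2, and the other 14 genes had 1 each. Counting regions within 10 kb of a homeobox region of any list as well gave 26 genes in Endoderm SMAD2/3 and 2 in ESC SMAD2/3. Only genes already listed somewhere could be added in this way, and the same count was not made for all genes. Holding the lists to equal length by height gave 6 in Endoderm SMAD2/3 (of 1891 symbols in all) and 1 in ESC SMAD2/3 (of 1676).

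HEB and SMAD2/3 in endoderm were listed together for 15 of the genes (15% of protein-coding genes were in both), HEB alone for 21 (against 9.85%) and SMAD2/3 alone for Irx5 (against 8.09%). The 10 tallest of the 21 with HEB alone were Nkx2-2 (126), Nkx6-1 (82.7), Alx4 (73.0), Nkx2-1 (71.8), Lhx5 (69.5), Nkx2-9 (67.3), Irx3 (66.1), Cdx2 (60.8), Irx2 (55.9) and Six3 (50.9). Of the 85 HEB regions, 19 (22.4%, CI 14.03 to 32.7) overlapped SMAD2/3, against 35.3%. From the SMAD2/3 side, 18 of 21 regions (85.7%, CI 63.7 to 96.95) were shared with Endoderm HEB, against 60.5%, the exceptions being those of Irx5, Lhx4 and Meis3. In lists of equal length by height this order turned round, with 1 of 8 homeobox regions of SMAD2/3 (12.5%) shared with Endoderm HEB, against 37.9% of all. From the HEB side it was 1 of 15 (6.67%), against 37.9%. Of the 21 SMAD2/3 regions, 16 (76.2%, CI 52.8 to 91.8) also overlapped an ESC HEB region, against 29.2%, and at equal length 2 of 8 (25.0%) did, against 12.3%. The median log2 ratio of tag enrichment at the 19 matched regions, HEB over SMAD2/3, was 0.24, against 0.25 over all matched regions. Meis1 and Lmx1a had SMAD2/3 regions over Endoderm HEB but not over ESC HEB, and one of the Meis2 regions did too.

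In ESCs, HEB and SMAD2/3 were listed together for Cdx1 (6.25% of protein-coding genes were in both), and HEB alone for 46 of the genes (against 17.9%). No gene had SMAD2/3 alone (against 1.07%). The tallest of the 46 were Meis2 (246), Lmx1b (184.9), Nkx2-2 (162), Irx2 (145), Lhx5 (134), Lhx4 (111), Six3 (108), Nkx2-9 (101.5), Irx3 (94.4) and Nkx2-1 (92.2). Of 118 ESC HEB regions, 1 overlapped an ESC SMAD2/3 region (0.847%, CI 0.0215 to 4.63), against 19.8% of all ESC HEB regions. Only 1 ESC SMAD2/3 region was listed for the 57 genes, so this low share largely repeats that count and is no separate evidence. The 1 homeobox region of ESC SMAD2/3 overlapped ESC HEB, as did 83.9% of all ESC SMAD2/3 regions. At Cdx1 the ESC HEB region had 685 ChIP and 53 input tags and a height of 80.4, and the ESC SMAD2/3 region over it had 170 ChIP and 28 input tags and a height of 26.0. Cdx1 therefore had a well enriched HEB region but a SMAD2/3 region near the smallest listed height. ESC HEB and Endoderm HEB each entered several of these comparisons, which are therefore not independent of each other.

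Over all 4 HEB lists, 19 of the 57 genes were listed in every one, and 10 of these also in Endoderm SMAD2/3 (Lhx2, Lhx3, Lhx4, Lhx9, Lmx1a, Lmx1b, Emx2, Meis1, Meis2 and Pbx3). The other 9 were Nkx2-2, Nkx2-3, Nkx6-1, Six3, Irx2, Irx3, Dlx1, Lhx5 and Alx4. Another 10 had HEB in every HEB list but Endoderm+SB HEB and no SMAD2/3 (Nkx2-1, Nkx2-9, Dlx2, Dlx5, Dlx6, Lhx8, Emx1, En2, Cdx2 and Tlx1), and Six2, Irx1, Msx1, Meis3 and Evx1 had the same HEB lists with Endoderm SMAD2/3. The shares of all protein-coding genes in these combinations of lists were not counted. Whether the counts are unusual for the 57 genes therefore cannot be read from them. Nkx2-5, Nkx6-2, Irx6, Dlx3, Dlx4 and Cdx4 were in no list, so no region in or within 1 kb of them was deposited in these lists. Regions farther from a gene carry no gene name in the lists.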

How the data were processed

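The series holds 6 ChIP and 4 input libraries, read on a Genome Analyzer II according to the labels. CASAVA 1.8.2 and the build mm9 come from the submitters' processing notes; the aligner, the peak caller and the annotation were not given in the sources used here. For every ChIP library the authors deposited a list of regions, and pooling is not mentioned. Per the file headers, each region has the counts of ChIP and background tags, the signal (height) of its ChIP peak and of background, and the ratio of tags, called tag enrichment here. How the deposited signal was scaled is not stated. The deposited tag ratio was never above the quotient of the tags, and more than 1% below it in 2.02% to 15.8% of the regions of a list. A deposited score headed as a −log10 q-value was not used, because its values are too large for that scale. Input reads were seen only as the background columns. The HEB and SMAD2/3 lists of a state appear to rest on 1 input: background counts were identical in 87% of 100 region pairs in ESCs and in 81.4% of 177 in endoderm whose edges matched within 10 bp, against 4.95% of 606 for HEB in ESCs with and without SB431542 and 8.57% of 105 in differentiating cells.

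A region was counted once, and its gene is the authors' assignment. Of 10730 listed symbols, 99.2% matched a RefSeq name (GRCm38.p6). No annotation of exons, introns or UTRs was used. Coordinates are mm9 as deposited, and whether they count from 0 or 1 is not given. Python 3.11.15, pandas 2.3.3, numpy 2.4.6, scipy 1.17.1 and matplotlib 3.10.9 were used. Lists were compared by overlaps of at least 1 bp, counted identically by bedtools 2.31.1 and tested on simulated lists. Intervals are exact Clopper-Pearson 95% intervals. Matched regions were paired by the longest overlap. Alternatives were the upper 50% of each list, lists of equal length, a common smallest height, other overlap rules, regions within 10 kb, and other ratios; limits of 1500 and 3000 bp on width, leaving out Lmx1b, ratios of covered length under each list, and overlaps of all regions in lists of equal length and by width were added after seeing the data, as was the limit of 2 kb.

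The genes and lists were chosen with earlier results of these data known. Genes named with values are, in each list, the 5 of highest tag enrichment, the 3 with the widest region and the 3 with the most regions, every gene with SMAD2/3 or in no list, genes listed on 1 side of a comparison (up to 15, else the 10 of greatest height), and the tallest of each subfamily in ESC HEB and Endoderm HEB. Further genes of the 57 named with values were chosen after their values were seen.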

Additional observations from a re-analysis of the deposited data

Results flagged for a closer look

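Between endoderm and ESCs, the homeobox genes differed in opposite directions for the antibodies to HEB and SMAD2/3. For HEB, endoderm minus ESC was -11 genes listed, -33 regions and -67181 bp of covered length. For SMAD2/3, endoderm had 15 more genes, 20 more regions and 17046 bp more than ESCs. The SMAD2/3 lists themselves held 11033 regions in endoderm and 4111 in ESCs, and the HEB lists 18981 in endoderm and 17222 in ESCs. Each value rests on 1 library a group, and the difference was not tested.

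SB431542 went with 12 fewer genes listed for HEB in differentiating cells (-12) and with 1 more in ESCs. This difference was not tested either. In lists of equal length by ChIP height, the counts were 13 with SB431542 and 9 without it in differentiating cells, and 27 with it and 23 without it in ESCs. Over all genes they were 1820 symbols with it and 1442 without it in differentiating cells, and 1691 with it and 1517 without it in ESCs, so the opposite directions did not hold there.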

How the results depend on the processing

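Of 195 alternative values for 54 results, 124 stayed close to the reported value, 70 moved further than the limit set for their kind (an interval for shares, 1.5-fold for counts) and 1 changed direction. No paired analysis was possible because each group has 1 library. Overlaps of at least 50% of the shorter region changed no result past these limits. Cutting every list to the 4111 regions of the shortest changed the most.

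Cut by ChIP height, genes listed were 13 (Endoderm+SB HEB), 9 (Endoderm HEB), 27 (ESC+SB HEB), 23 (ESC HEB) and 6 (Endoderm SMAD2/3). Cut by tag enrichment they were 15 (Endoderm+SB HEB), 6 (Endoderm HEB), 30 (ESC+SB HEB), 22 (ESC HEB) and 4 (Endoderm SMAD2/3). In the upper 50% they were 13 in Endoderm+SB HEB, 7 in Endoderm SMAD2/3 and 0 in ESC SMAD2/3, which was also 0 at the common smallest height of 28.0005. With regions within 10 kb added they were 26 in Endoderm SMAD2/3 and 2 in ESC SMAD2/3. The covered length of Endoderm HEB over ESC HEB had a ratio of 0.276 by height and 0.186 by enrichment in lists of equal length. That of Endoderm+SB HEB over Endoderm HEB had 0.841 by height and turned to 1.17 by enrichment. The cause was not tested.

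Overlaps in lists of equal length were 60.0% (Endoderm HEB with ESC HEB), 26.3% (ESC HEB with Endoderm HEB), 79.5% (ESC+SB HEB with ESC HEB), 94.7% (ESC HEB with ESC+SB HEB), 30.4% (Endoderm+SB HEB with Endoderm HEB), 6.67% (Endoderm HEB with Endoderm SMAD2/3), 12.5% (Endoderm SMAD2/3 with Endoderm HEB) and 25.0% (Endoderm SMAD2/3 with ESC HEB). In the upper 50% they were 53.0% (ESC HEB with Endoderm HEB), 96.97% (ESC HEB with ESC+SB HEB) and 0% (ESC HEB with ESC SMAD2/3). At the common smallest height they were 83.8% (ESC+SB HEB with ESC HEB) and 0% (ESC HEB with ESC SMAD2/3). By the centre of a region, Endoderm HEB with Endoderm+SB HEB had 24.7%.

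Regions over the 5′ end were 11.3% (Endoderm+SB HEB), 23.5% (Endoderm HEB), 33.3% (ESC+SB HEB) and 28.8% (ESC HEB). Promoter-proximal shares were 26.7% in Endoderm HEB and 55.3% in ESC HEB at equal length, and 57.6% in ESC HEB in the upper 50%. The median width in Endoderm SMAD2/3 fell below that of its list in the upper 50% and at equal length. Median widths were 1749 bp (ESC+SB HEB) and 1936 bp (ESC HEB) in the upper 50%, and 2474 bp (ESC+SB HEB) and 2287.5 bp (ESC HEB) at equal length. Regions over 1500 bp and over 3000 bp made up 40.0% and 9.41% in Endoderm HEB, 44.1% and 17.1% in ESC+SB HEB, and 41.5% and 12.7% in ESC HEB. Heights in the lists start at 25.0, so weaker regions were not detectable here, and a gene without a listed region is not shown to lack binding.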
